A study of Flaveria angustifolia and Flaveria bidentis and Flaveria brownii with 21 samples.

Results

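The genes described here build and loosen the primary cell wall, the thin extensible wall of growing plant cells. They are 9 in number: the cellulose synthases CESA1 (AT4G32410), CESA3 (AT5G05170) and CESA6 (AT5G64740), the endoglucanase KOR1 (AT5G49720), and the alpha-expansins EXPA1 (AT1G69530), EXPA4 (AT2G39700), EXPA5 (AT3G29030), EXPA8 (AT2G40610) and EXPA10 (AT1G26770). They were chosen by Arabidopsis locus identifier, and all 9 were found among the 20551 loci of the table. Reads of Flaveria, daisy relatives, had been assigned to Arabidopsis loci, so each name stands for the Flaveria reads that matched that Arabidopsis gene. Members of a gene family can share such reads, and single cellulose synthase and expansin loci are therefore uncertain.

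As background, cellulose is spun at the plasma membrane by a rosette complex in which the primary wall takes CESA1, CESA3 and a subunit of the CESA6 type, and KOR1 is a membrane-bound endoglucanase that the complex needs. Alpha-expansins loosen the wall without cutting its polymers and act in cells that enlarge at acid wall pH. In a young leaf cells first divide and then expand, and wall enlargement stops as the leaf reaches its final size.

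Leaves of 11 species grown in a greenhouse gave 18 libraries, each pooled from several plants, with 1 library for each species and stage. The 8 mature libraries (newest leaf that had fully expanded) came from F. bidentis, F. kochiana and F. trinervia, taken as C4 from textbook knowledge, F. brownii (C4-like), F. angustifolia and F. pubescens (C3-C4 intermediates), and F. cronquistii and F. pringlei (C3). The 10 juvenile libraries (leaves that had just begun to expand) came from F. bidentis and F. trinervia (C4), F. brownii, F. palmeri and F. vaginata (C4-like), F. angustifolia, F. pubescens and F. sonorensis (C3-C4), and F. cronquistii and F. pringlei (C3). Values are RPM, reads scaled to a library total of 1e+06 assigned reads, not divided by gene length, so levels are compared between libraries and not between genes. Libraries held 5.40 to 9.15 M assigned reads (M, 1e+06), and no member had fewer than 41 reads in any library. As a check of the tissue, the summed level of 5 leaf photosynthesis genes was 23497 to 99989 RPM in mature and 21686 to 78428 RPM in juvenile libraries. The sum of 5 meristem and flower genes was 2.38 to 19.3 RPM in mature libraries (13.2 RPM in F. trinervia, against a mature median of 4.41 RPM) and 4.72 to 19.8 RPM in juvenile libraries. Of these STM was under 3 reads in all 18 libraries, whereas AP1 was under 3 reads in 0 and SEP3 in 1 of them. P-values of the main fits rest on the spread between species, since plants of a species were pooled.

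The first comparison was that of leaf age. All 5 expansins and CESA6 fell in mature leaves relative to juvenile ones in the species-blocked test, whereas CESA1, CESA3 and KOR1 did not pass the test. EXPA4 had the largest change, to 49.6 ± 54.5 RPM in mature leaves against 146.8 ± 54.8 RPM in juvenile leaves (SD, n = 7 species). Of the 9 genes 6 were lower and 0 higher at an adjusted p under 0.05 in limma, beside 37.6% of all 14500 tested loci lower and 12.7% higher (50.3% in either direction). The median log2 fold change was −1.07 over the 9 genes and −0.31 over all tested loci. With TMM scaling, which brings the median of all loci to −0.0016, 3 of the 9 were lower (CESA6, EXPA1 and EXPA4) and 1 higher (CESA3), beside 22.0% and 23.1% of all loci. In 0 of the 9 was every mature library below every juvenile library, a pattern that 4.43% of all loci had. In bulk leaf RNA fewer cells of a type and less RNA per cell cannot be told apart.

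**Figure D1:**
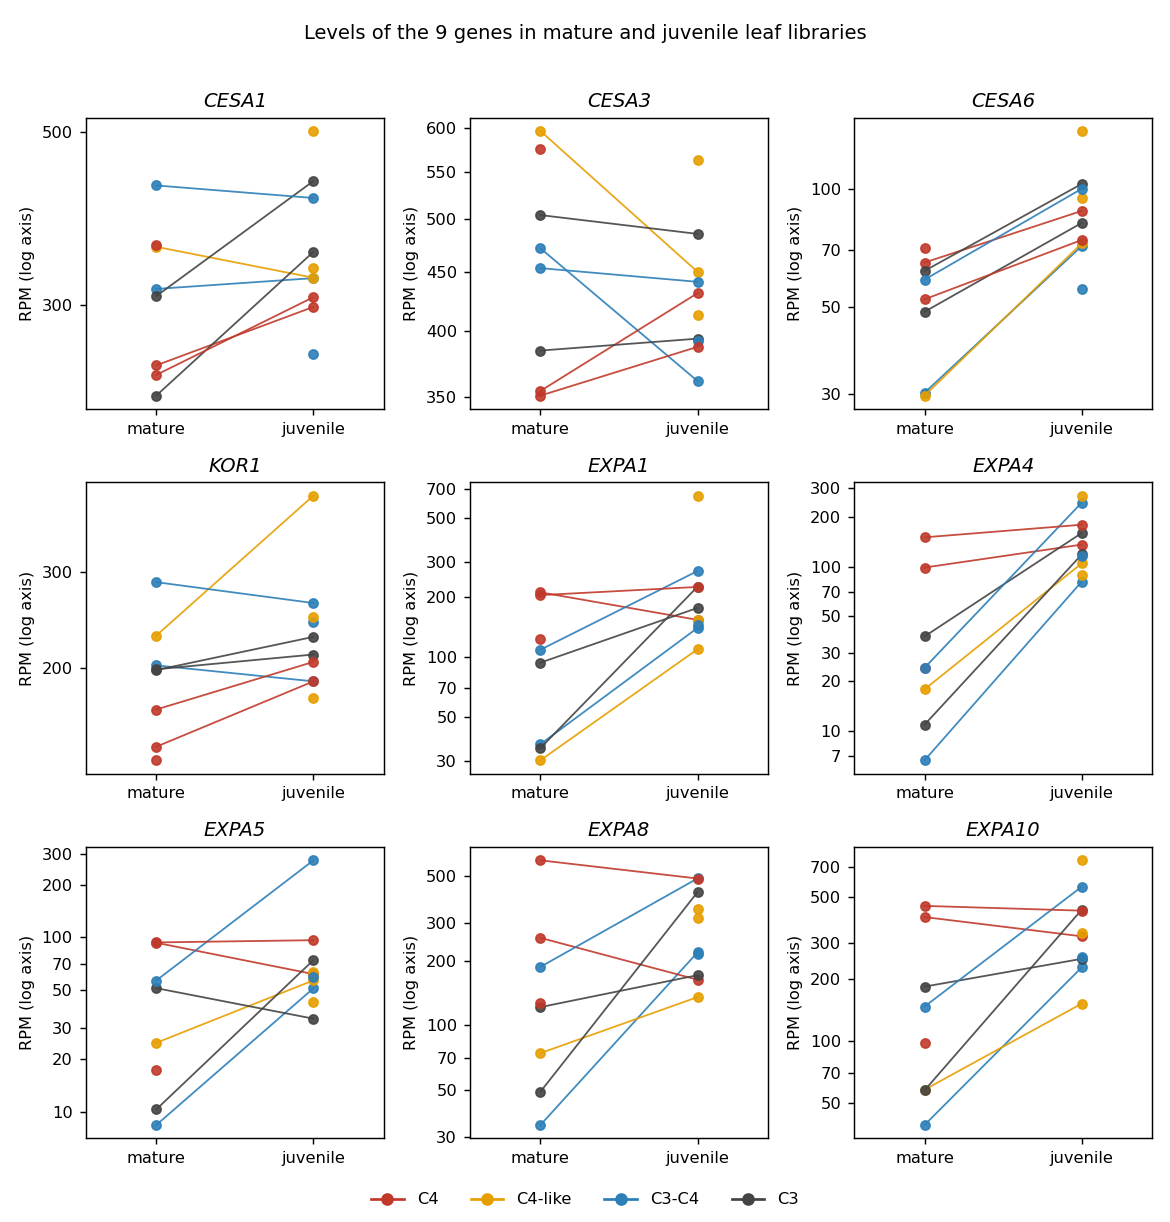
RPM on log axes of each of the 9 genes in 8 mature (left) and 10 juvenile (right) libraries, 1 point per library, coloured by photosynthetic type, with lines joining the stages of a species. The expansin lines of F. bidentis and F. trinervia (C4) run nearly level, with EXPA10 at 400.0 and 453.2 RPM in their mature leaves, while most other lines are lower on the mature side.

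Among the catalytic subunits, CESA1 stood at 229.0 to 427.0 RPM in the 8 mature libraries (median 310.9) and at 259.4 to 501.9 RPM in the 10 juvenile libraries (median 329.5). The ranges overlapped, with 3 mature libraries below every juvenile one and 2 juvenile libraries above every mature one. Its log2 fold change was −0.22 ± 0.15 (SE; adjusted p = 0.238), with lower values in mature leaves of 5 of the 7 species. CESA3, the partner subunit found in every primary wall rosette, had 351.1 to 597.0 RPM in mature libraries (median 462.6) and 361.5 to 563.1 RPM in juvenile libraries (median 422.2). It was the steadiest of the 9 genes with age, at 0.06 ± 0.15 (adjusted p = 0.752), higher in 4 of 7 species. With TMM scaling it was higher at 0.41 ± 0.14 (adjusted p = 0.0362), and CESA1 changed sign to 0.12 (adjusted p = 0.511).

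CESA6 gives its name to the variable position of the rosette. It ran at 29.7 to 70.6 RPM in mature libraries (median 55.5) and at 55.7 to 140.6 RPM in juvenile libraries (median 84.9). Mature leaves were lower in 7 of 7 species, a pattern that 28.5% of all tested loci shared, and the groups overlapped only because of 1 low juvenile library, that of F. sonorensis. The log2 fold change was −0.80 ± 0.16 (adjusted p = 0.00133), and −0.46 ± 0.17 with TMM scaling (adjusted p = 0.0405). The drop was deepest in F. brownii, with 29.7 RPM in mature against 72.6 RPM in juvenile leaves, and in F. angustifolia, with 30.2 against 71.5 RPM.

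KOR1, which is needed for normal cellulose synthesis in Arabidopsis, had 135.2 to 287.2 RPM in mature libraries (median 198.4) and 175.8 to 414.1 RPM in juvenile libraries (median 219.7). Its log2 fold change was −0.23 ± 0.16 (adjusted p = 0.243), and 0.12 ± 0.17 with TMM scaling (adjusted p = 0.610). F. brownii had 229.1 RPM in mature and 414.1 RPM in juvenile leaves, a difference of −0.85. The other 6 species lay between −0.40 and 0.13.

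CESA6 was also set against its partners within each library, as a description with no test. The ratio of CESA6 to CESA1 reads was 0.0835 to 0.259 in mature libraries (median 0.199) and 0.215 to 0.295 in juvenile libraries (median 0.240). It was lower in mature leaves of 7 of 7 species, and so was the ratio to CESA3, at 0.0498 to 0.183 against 0.142 to 0.250. CESA6 alone was also lower in 7 of 7, and the share of gene pairs with such a pattern was not counted. F. brownii had the lowest mature value of both ratios. These ratios do not depend on how the libraries were scaled. The ratio of CESA3 to CESA1 had a median of 1.55 in mature and 1.18 in juvenile libraries, with higher values in the mature leaf of 5 of 7 species.

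**Figure D2:**
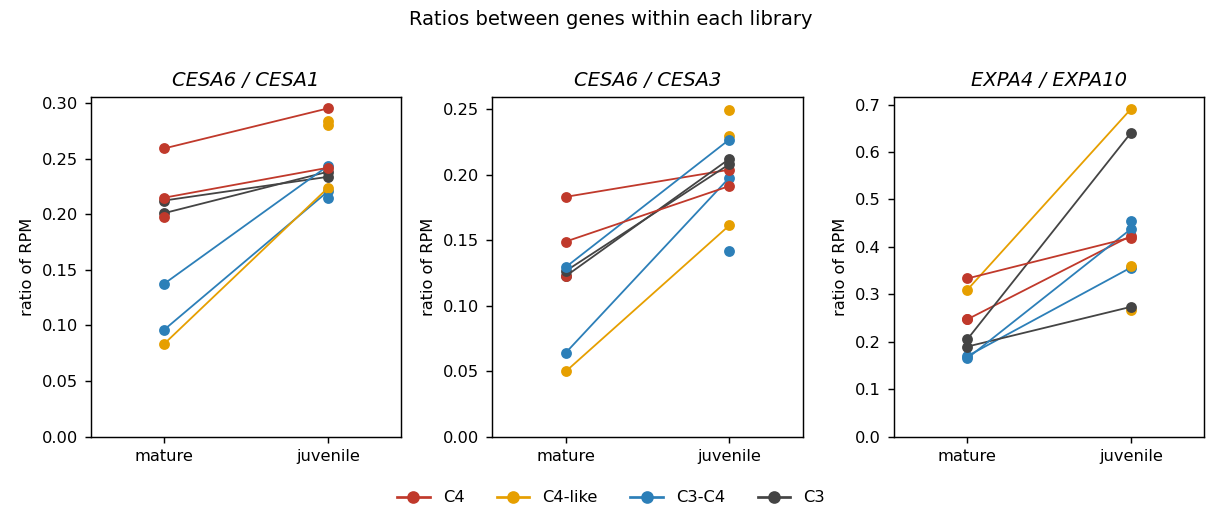
Ratios of RPM within each library, mature (left) and juvenile (right), 1 point per library, lines joining the stages of a species, colours marking type. CESA6 relative to CESA1 and to CESA3, and EXPA4 relative to EXPA10, were lower in mature leaves of 7 of 7 species. The ratio of CESA6 to CESA1 was lowest, at 0.0835, in mature F. brownii.

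The fold changes of the expansins, −2.19 to −1.07, were larger than that of CESA6. EXPA4 ranged from 6.61 RPM (F. angustifolia) to 151.0 RPM (F. trinervia) in mature libraries, with a median of 24.2 RPM, and from 81.1 to 271.1 RPM in juvenile libraries, with a median of 127.6 RPM. Among mature libraries only those of F. trinervia and F. bidentis, at 151.0 and 98.8 RPM, reached into the juvenile range, and the other 6 were at 37.6 RPM or less. EXPA4 was lower in mature leaves of 7 of 7 species, by a log2 fold change of −2.19 ± 0.38 (adjusted p = 5.8e-04), and of −1.85 with TMM scaling (adjusted p = 0.00238).

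EXPA1, which in Arabidopsis is known from guard cells, had 30.3 RPM (F. brownii) to 211.4 RPM (F. bidentis) in mature libraries, with a median of 101.3 RPM, and 109.5 to 646.3 RPM in juvenile libraries, with a median of 165.1 RPM. The groups overlapped through the mature libraries of the 3 C4 species. EXPA1 averaged 102.9 ± 78.0 RPM in mature and 185.8 ± 56.7 RPM in juvenile leaves of the 7 species (SD). Its log2 fold change was −1.18 ± 0.31 (adjusted p = 0.00783), and −0.84 with TMM scaling (adjusted p = 0.0482). It was lower in 6 of 7 species, F. bidentis being the exception with 211.4 RPM in mature and 153.7 RPM in juvenile leaves. With edgeR on the recovered reads the EXPA1 call ended (adjusted p = 0.0593), as it did without the species block (0.0523).

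EXPA10, which promotes leaf growth in Arabidopsis, had 39.0 RPM (F. angustifolia) to 453.2 RPM (F. trinervia) in mature libraries, with a median of 122.4 RPM, and 151.8 to 754.8 RPM in juvenile libraries, with a median of 328.9 RPM. The mature libraries of F. trinervia, F. bidentis and F. cronquistii lay inside the juvenile range, and the other 5 below it. EXPA10 averaged 191.2 ± 169.8 RPM in mature and 339.7 ± 142.8 RPM in juvenile leaves (SD, n = 7 species). Its log2 fold change was −1.25 ± 0.36 (adjusted p = 0.0118), lower in 5 of 7 species. The call ended with TMM scaling (−0.91, adjusted p = 0.0551), with edgeR (0.0714) and without the species block (0.0798).

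EXPA5 and EXPA8 passed less firmly. EXPA5 had 8.39 to 93.2 RPM in mature libraries (median 37.9) and 34.1 to 275.2 RPM in juvenile libraries (median 60.2). EXPA8 had 34.2 to 590.3 RPM in mature libraries (median 124.3) and 135.5 to 485.9 RPM in juvenile libraries (median 268.6). In both genes F. angustifolia was the lowest and F. trinervia the highest mature library, and the groups overlapped. Over the 7 species EXPA5 had 48.1 ± 35.7 RPM in mature and 92.6 ± 82.8 RPM in juvenile leaves (log2 fold change −1.07 ± 0.40, adjusted p = 0.0425). EXPA8 had 187.6 ± 194.5 RPM in mature and 297.2 ± 159.1 RPM in juvenile leaves (−1.07 ± 0.39, adjusted p = 0.0364). Each was lower in 5 of 7 species, and each lost its call in 8 of the 12 alternatives, among them TMM scaling (adjusted p = 0.153 for EXPA5 and 0.145 for EXPA8). Leaving out F. angustifolia (0.122 for EXPA5 and 0.110 for EXPA8), F. brownii (0.0755 and 0.0563), F. pringlei (0.133 and 0.116) or F. pubescens (0.121 and 0.0796) ended both calls.

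EXPA4 was likewise lower relative to EXPA10 in mature leaves, with no test run. Its ratio to EXPA10 was 0.165 to 0.333 in mature libraries and 0.267 to 0.690 in juvenile libraries, lower in mature leaves of 7 of 7 species. As with CESA6, EXPA4 alone was also lower in 7 of 7, and the share of gene pairs with such a pattern was not counted. The ratios of EXPA1, EXPA5 and EXPA8 to EXPA10 were each lower in 3 of the 7. EXPA1 ran beside EXPA10 at 0.451 to 1.26 in mature and 0.457 to 0.856 in juvenile libraries.

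The expansins were then followed species by species. In F. bidentis and F. trinervia, both C4, mature leaves held about the juvenile level, with a median log2 difference over the 5 expansins of 0.46 and −0.04. In the other 5 species that median was −0.49 in F. cronquistii, −1.38 in F. brownii, −1.93 in F. pubescens, −2.51 in F. angustifolia and −2.90 in F. pringlei. The shift of all tested loci in the same species was −0.28 in F. bidentis, −0.34 in F. trinervia and −0.50 to −0.05 in the other 5.

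EXPA8 was at 256.3 RPM in mature and 163.3 RPM in juvenile leaves of F. bidentis, and at 590.3 RPM in mature and 485.3 RPM in juvenile leaves of F. trinervia. In F. pringlei it stood at 48.9 RPM in mature and 419.4 RPM in juvenile leaves, and in F. angustifolia at 34.2 RPM in mature and 219.3 RPM in juvenile leaves. EXPA10 likewise had 400.0 RPM in mature and 322.4 RPM in juvenile leaves of F. bidentis, against 57.5 and 434.2 RPM in those of F. pringlei. EXPA5 was the exception among the 5, since the C3 species F. cronquistii also had more in mature leaves (51.0 RPM) than in juvenile leaves (34.1 RPM).

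For 4 of the 5 expansins and for CESA6, the differences of F. bidentis and F. trinervia both lay above those of each of the other 5 species, a pattern seen in 6.43% of all tested loci. EXPA8 and EXPA10 were above 0 in both and below 0 in the other 5, as were 0.683% of all loci. This grouping was chosen after the values were seen and was not tested. The cellulose synthesis genes did not share it otherwise. In F. bidentis and F. trinervia all 4 were lower in mature leaves, with medians of −0.34 and −0.31. These were near the medians of all loci there, −0.28 and −0.34. CESA3 was at −0.28 and −0.14, against −0.03 to 0.41 in the other 5 species, and the share of all loci with such a separation was not counted.

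**Figure D3:**
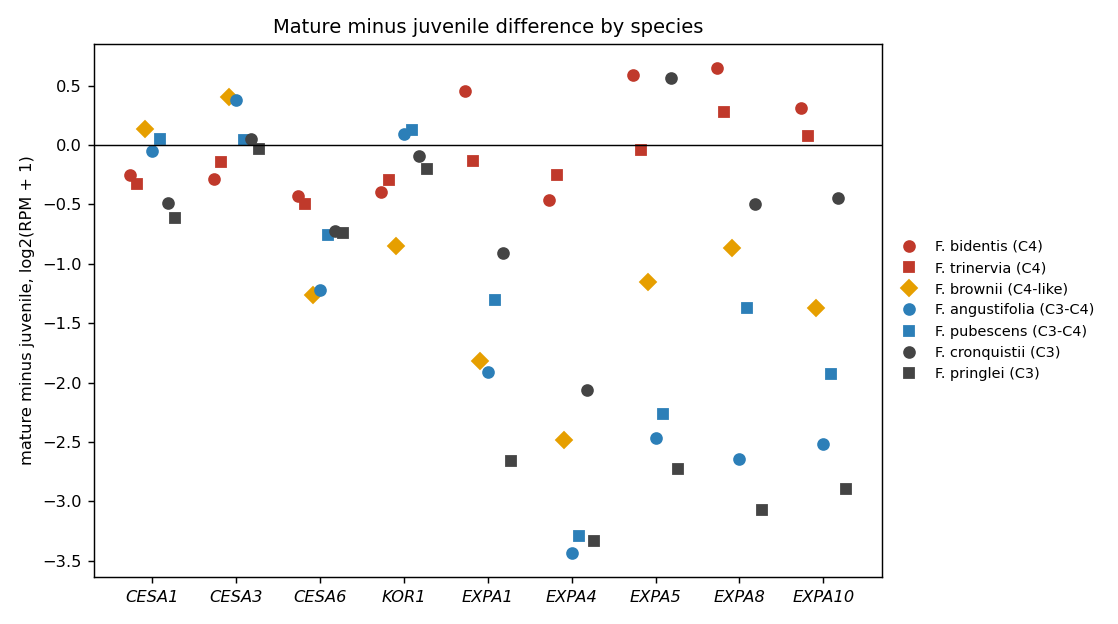
Mature minus juvenile difference in log2(RPM + 1) for each of the 9 genes in the 7 species that have both stages, 1 point per species, coloured by type. The expansin points of F. bidentis and F. trinervia lie between −0.46 and 0.65, and those of F. pringlei between −3.34 and −2.66.

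F. kochiana, also C4 but sampled only as mature leaf, did not stand with that pair. It had 24.3 RPM of EXPA4, 17.3 RPM of EXPA5, 126.9 RPM of EXPA8 and 98.0 RPM of EXPA10, all inside the range of the C4-like, C3-C4 and C3 mature libraries. EXPA1, at 123.6 RPM, was above that range, whose highest value was 108.8 RPM in F. pubescens.

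Marker genes of other cell states also differed in those 2 species. Genes of dividing cells had the smallest decrease there, with a median log2 difference over 4 tested genes of −1.84 in F. bidentis and −3.11 in F. trinervia, against −4.72 to −3.65 in the other 5 species. Their sum over 5 genes was 6.28 RPM in mature F. bidentis and 6.12 RPM in mature F. trinervia, against a mature median of 3.23 RPM, a mature maximum of 13.8 RPM in F. cronquistii, and 38.0 to 167.1 RPM in juvenile libraries. CYCB1;1, a mitotic cyclin, had no reads in mature F. bidentis or F. trinervia. It was low throughout, under 3 reads in 8 of the 18 libraries and at most 2.71 RPM. Phloem companion cell genes had a median difference over 3 genes of −0.54 in F. bidentis and −0.21 in F. trinervia, against 0.58 to 1.57 in the other 5 species. In those 2 species this median was the value of AHA3, and the 3 genes did not move together. SUC2 was at 0.08 in F. bidentis and 0.29 in F. trinervia, against a median of 2.49 in the other 5. APL was lower in all 7 species, at −0.85 in F. bidentis and −1.82 in F. trinervia. The same 2 libraries were the deepest of the mature set, with 7.80 and 9.15 M reads against 5.45 to 7.16 M in the others, and their leaf photosynthesis genes summed to 37348 and 38939 RPM, below the mature median of 56227 RPM. The part of these markers and of depth in the expansin levels was not tested.

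Whether the change with age differed by type was tested on the species differences, C4 and C4-like (F. bidentis, F. trinervia and F. brownii) against C3 and C3-C4 (4 species). EXPA4 had the largest value, 1.96 ± 0.55 on the log2 scale (unadjusted p = 0.00404, adjusted p = 0.632), followed by EXPA8 at 1.92 ± 0.59 (unadjusted p = 0.00785, adjusted p = 0.648) and EXPA10 at 1.62 ± 0.58 (unadjusted p = 0.0174, adjusted p = 0.648). EXPA5 was at 1.52 ± 0.73 and EXPA1 at 1.20 ± 0.56. The cellulose synthases lay between −0.12 and 0.13, and KOR1 at −0.50 ± 0.29.

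None of the 9 genes passed in limma (0 of 9), and neither did any other locus (0% of 14500). At an unadjusted p under 0.05 there were 3 of 9 members and 7.08% of all loci. EdgeR on the recovered reads passed 0 loci as well, with 3 of the 9 members at an unadjusted p under 0.05. Leaving out F. brownii set F. bidentis and F. trinervia, the pair picked out above after the values were seen, against the C3 and C3-C4 species. The p-values of that fit are therefore no test of the pair. Without F. brownii the expansin differences were larger, 2.67 ± 0.43 for EXPA4 and 2.36 ± 0.62 for EXPA8. All 5 expansins had an unadjusted p under 0.05, beside 9.15% of all loci. None of the 9 passed there, beside 0.00696% of 14358 loci, and the adjusted p-values of the expansins ran from 0.147 for EXPA4 to 0.502 for EXPA5. Without F. cronquistii there were again 5 members at an unadjusted p under 0.05, and without F. bidentis, F. pringlei or F. trinervia there were 2. Over the 7 species left out in turn the difference ran from 1.56 to 2.67 for EXPA4 and from 0.72, without F. bidentis, to 1.86 for EXPA1.

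Types were next compared across all 18 libraries. No member passed between photosynthetic types: C4 against C3 species gave 0 of 9 in limma, beside 1.27% of all loci, with 0 at an unadjusted p under 0.05 beside 2033 of 14479 loci (edgeR 0, and 2 unadjusted). Adding the C4-like species to the C4 side and the C3-C4 species to the C3 side gave 0 of 9, beside 1.40% of all loci, again with 0 at an unadjusted p under 0.05 beside 12.4% of loci (edgeR 0, and 0 unadjusted). Unlike the limma fits, these edgeR fits had no species term, so both libraries of a species counted as independent. The 5 expansins were all on the C4 side of 0, with log2 fold changes of C4 over C3 from 0.75 ± 0.77 (EXPA10) to 1.00 ± 0.78 (EXPA4), but the standard errors were about as large. The median of all loci was −0.12 in this comparison and −0.0073 with TMM scaling. The cellulose synthases lay between −0.11 ± 0.31 (CESA1) and 0.07 ± 0.36 (CESA6), and KOR1 at −0.33 ± 0.32. By textbook knowledge the 3 C4 species share a lineage, so type and ancestry cannot be told apart.

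The levels of EXPA4 show how the types lay within each stage. In mature libraries EXPA4 had 91.4 ± 63.7 RPM in C4 (SD, n = 3), 17.9 RPM in C4-like (1 library), and 6.61 and 24.2 RPM in C3-C4 species, against 10.9 and 37.6 RPM in C3 species. In juvenile libraries it had 136.4 and 180.2 RPM in C4, 155.2 ± 100.7 RPM in C4-like (SD, n = 3) and 147.8 ± 86.6 RPM in C3-C4 species (SD, n = 3), against 118.7 and 160.4 RPM in C3 species. The juvenile levels of the types overlapped. KOR1 was lowest in the C4 mature libraries, at 135.2, 143.2 and 167.6 RPM, with 198.0 and 198.7 RPM in C3 mature libraries. This order was picked out from the values, and the share of all loci with it was not counted. With mature libraries alone the KOR1 difference did not pass, as for all 9 genes.

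Among juvenile leaves F. vaginata and F. pubescens led most of the genes. F. vaginata had the highest juvenile level of CESA1 (501.9 RPM), CESA3 (563.1 RPM), CESA6 (140.6 RPM), EXPA1 (646.3 RPM), EXPA4 (271.1 RPM) and EXPA10 (754.8 RPM). F. pubescens had the highest of EXPA5 (275.2 RPM) and EXPA8 (485.9 RPM, with F. trinervia next at 485.3 RPM). F. brownii was lowest for EXPA1 (109.5 RPM), EXPA8 (135.5 RPM) and EXPA10 (151.8 RPM) and highest for KOR1 (414.1 RPM). EXPA5 broke this order in F. vaginata, where it stood at 42.7 RPM, below 8 of the 9 other juvenile libraries. The highest juvenile value was 1.56 times the lowest for CESA3 and 8.08 times the lowest for EXPA5.

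The rest of the wall machinery was read from lists of related genes in the same stage test. Of 4 other cellulose synthases of the primary wall 3 fell, beside 37.6% of all loci. Their log2 fold changes were −0.68 for CESA2, −0.58 for CESA9 and −0.43 for CESA5, and by descent these 3 belong with CESA6. The remaining one, CESA10, a close relative of CESA1 chosen for mention once its value was known, was at 0.005 ± 0.144 (157.1 RPM in mature and 154.1 RPM in juvenile leaves). With TMM scaling 0 of these 4 passed, beside 22.0% of all loci lower and 23.1% higher. All 3 secondary wall cellulose synthases fell, beside 37.6% of all loci, with CESA8 at −0.87, CESA7 at −0.55 and CESA4 at −0.44. Only CESA8 also passed with TMM scaling, in which 22.0% of all loci were lower.

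Of 11 tested partners of cellulose synthesis 4 fell and 7 did not pass, a share near the 37.6% of all loci that fell. CC2 and CSI1, which tie the synthase complex to microtubules, were at −1.09 and −1.03, both lower also with TMM scaling. SHOU4L and SHOU4, which restrain delivery of the complex to the membrane in Arabidopsis, were at −0.78 and −0.71, and neither passed with TMM scaling.

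Of 14 other alpha-expansins in the list used here, which need not be the whole family, all 10 that could be tested fell. With TMM scaling 9 did, beside 37.6% and 22.0% of all loci in the 2 fits. Their median was −1.79, beside −0.31 for all loci. EXPA16 had 5.09 RPM in mature and 36.8 RPM in juvenile leaves (−2.68 ± 0.24, adjusted p = 1.5e-05), and EXPA3 had 19.4 RPM in mature and 126.2 RPM in juvenile leaves (−2.68 ± 0.29, adjusted p = 3.0e-05). EXPA11 was at −1.95 and EXPA6 at −1.85. Their sum over 14 loci, which abundant genes such as EXPA15 weigh most, was highest in mature F. bidentis and F. trinervia, at 384.6 and 450.7 RPM, against 136.1 RPM at most in the other mature libraries and 360.6 to 1074 RPM in juvenile ones. Gene by gene the picture was different: the median log2 difference of the 10 was −0.42 in F. bidentis and −1.35 in F. trinervia, beside −1.31 in F. cronquistii and −2.54 to −2.11 in the other 4 species. Of 3 tested beta-expansin and expansin-like genes 2 fell, beside 37.6% of all loci. EXPB3 had 1.66 RPM in mature and 10.5 RPM in juvenile leaves (adjusted p = 1.2e-04), and EXLA2 was at −0.97 (adjusted p = 0.0466), a call that ended with TMM scaling (adjusted p = 0.138).

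Xyloglucan genes went both ways. Of 22 tested genes that make or remodel this hemicellulose 7 fell and 7 rose, beside 37.6% of all loci lower and 12.7% higher. With TMM scaling 4 fell and 8 rose, beside 22.0% and 23.1%. In neither fit was the share that fell higher than that of all loci. The median log2 fold change of these genes was −0.16. Among the xyloglucan endotransglucosylases XTH32 was at −2.58, XTH9 at −2.57 and XTH5 at −1.60, whereas XTH33 rose by 1.67. XTH7, named after its value was seen, rose by 1.10, with 938.0 RPM in mature and 434.4 RPM in juvenile leaves, and it was higher in 7 of 7 species. Of 7 pectin genes 2 fell, the galacturonosyltransferase GAUT1 at −0.96 and the pectin methylesterase PME3 at −0.77, and of these GAUT1 also passed with TMM scaling. This share, 2 of 7, was no higher than the 37.6% of all loci.

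**Figure D4:**
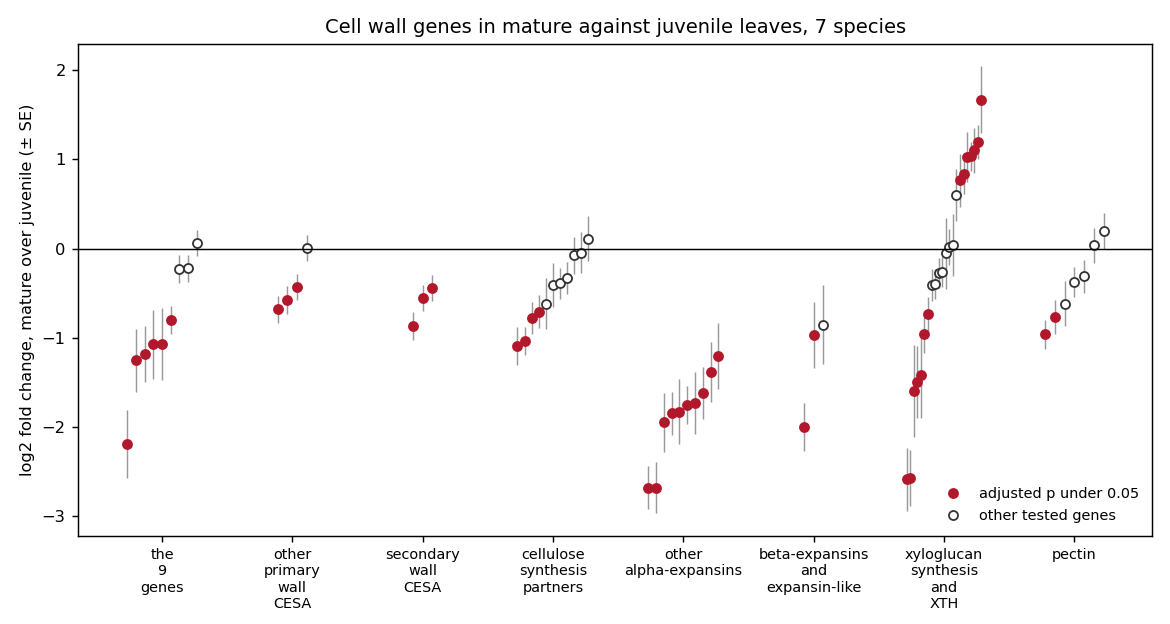
Log2 fold change of mature over juvenile leaves with its standard error for tested cell wall genes, 1 point per gene, grouped by list, with filled points at an adjusted p under 0.05. All 10 other alpha-expansins tested from the list lie below 0, while the xyloglucan genes range from −2.58 to 1.67.

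Beside these lists, markers of other states of the leaf moved with age. All 4 tested genes of dividing cells fell, beside 37.6% of all loci, with AUR1 at −3.83, MCM2 at −3.64, KN at −3.61 and CDKB2;1 at −3.54. Of 5 leaf photosynthesis genes 3 rose, beside 12.7% of all loci, RCA and LHCA3 by 0.80 each and LHCB3 by 0.54. The phloem genes SUC2 and AHA3 rose by 1.41 and 0.71, and APL was at −0.98. Their part in the change of the wall genes was not tested.

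The members' patterns over the 18 libraries were last set side by side, as a description over libraries that share species and stage. Pearson's r of log2(RPM + 1) was 0.69 to 0.94 between the 10 pairs of expansins, highest for EXPA1 with EXPA10. Over the 10 juvenile libraries alone the same pairs ran from 0.13 to 0.91, and over the 8 mature libraries from 0.81 to 0.97. CESA6 followed the expansins, with r of 0.51 to 0.85 over the 18 libraries, more closely than it followed CESA1 (0.49) or CESA3 (−0.02). In juvenile libraries alone the order was reversed, with r of CESA6 at 0.91 with CESA1 and 0.81 with CESA3. With the expansins it was −0.04 (EXPA5) to 0.75 (EXPA1) there. In mature libraries alone CESA6 had r of 0.51 (EXPA5) to 0.78 (EXPA1) with the expansins, against −0.07 with CESA1 and −0.27 with CESA3. Which reads were shared between paralogs is not given in the sources used here, and their part in these values was not tested.

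Among 8965 other loci that averaged 10 RPM or more, the nearest to EXPA4, EXPA10 and EXPA1 was EXPA15 (r = 0.95, 0.94 and 0.88). EXPA9 came next for EXPA10 (0.93) and EXPA1 (0.87), and EXPA6 was among the 3 nearest to both EXPA1 (0.86) and EXPA4 (0.93). Over the 5 expansins 7 of the 15 nearest places went to expansins, all of them beside EXPA1, EXPA4 and EXPA10. None of the loci nearest to EXPA5 or EXPA8 was a listed expansin. KOR3, a paralog of KOR1, was second nearest to KOR1 (0.82). CESA6 was nearest to AT2G36910 (0.92), which the files do not pair with a name, and none of the 9 places next to the 3 cellulose synthases went to a gene of the lists used here.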

How the data were processed

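Leaf RNA of 11 Flaveria species was sequenced as 18 libraries, 10 of juvenile and 8 of mature leaves, and 3 out-group samples were not analysed here. Values for 20551 Arabidopsis loci were deposited as RPM, in which each library sums to 1e+06. Per the submitters' processing notes the Arabidopsis build was TAIR10. Which aligner and counting rule were used, and how reads matching several loci were handled, is not given in the sources used here. All values (100%) were whole multiples of 1 read, within 0.001 of a read, which gave totals of 5.40 to 9.15 M (1e+06 reads) a library.

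Groups followed the labels (species and stage), and photosynthetic types are textbook knowledge. Tests used limma 3.58.1 in R 4.3.3 on log2(RPM + 1), with variances moderated along a trend, keeping loci that averaged 2 RPM or more, and two-sided p-values adjusted by Benjamini-Hochberg over all loci tested (threshold 0.05). Fold changes on this scale understate changes of low genes. Mature and juvenile leaves were compared in the 7 species that have both, blocked by species. Libraries were paired by the labelled species, whose deviations from the stage means correlated at 0.440 to 0.717 within a species. Type comparisons took the 18 libraries together, adjusting for stage, with a random effect of species (correlation 0.493, statmod 1.5.0), and the stage difference by type on the 7 species differences. Alternatives were a pseudocount of 0.1, no filter, TMM scaling, edgeR 4.0.16 on the recovered reads, no species block, 1 value per species, 1 stage alone, and each species left out. In the type comparisons the edgeR fit adjusted for stage but had no species term. The main limma fits were also run on simulated counts. Those had no shift common to all loci, unlike the stage comparison here, and no result rests on them. Values were tabulated with Python 3.11.15, numpy 2.4.6 and pandas 2.3.3 and plotted with matplotlib 3.10.9. All 9 members were named, and up to 4 passing genes of the largest change in each other list. The members and lists were chosen with earlier results of these data known. Errors are SDs over species or standard errors of the fits.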

Additional observations from a re-analysis of the deposited data

Results flagged for a closer look

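A check for single values apart from the rest of their group gave 4 flags in 27 groups. For each of the 9 genes the groups were mature levels, juvenile levels and species differences, and all 4 flags fell on levels. For normal values chance flags about 1 in 20 groups. That rate need not hold here, since levels were checked as RPM without a log scale and the genes are correlated. KOR1 was at 414.1 RPM in juvenile F. brownii, where the other 9 juvenile libraries had 262.9 RPM at most. EXPA1 was at 646.3 RPM in juvenile F. vaginata. EXPA5 was at 275.2 RPM in juvenile F. pubescens, and EXPA8 at 590.3 RPM in mature F. trinervia.

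For several genes every species of a type moved one way with age and every species of another type the opposite way, with 2 species a type. These differences were not tested in this grouping, and the share of all loci with such a pattern was not counted. With so few species a type, opposite signs can also arise by chance. EXPA8 had higher values in mature leaves of both C4 species and lower ones in both C3-C4 and both C3 species, a difference in mean log2 change of 2.47 between C4 and C3-C4 and of 2.25 between C4 and C3. For EXPA10 the same differences were 2.42 and 1.87. CESA3 went the other way, with the C4 change below the C3-C4 change by a difference of −0.42. For KOR1 the difference was −0.46 between C4 and C3-C4 and 0.26 between C3-C4 and C3. Some of the changes were small, such as 0.077 for EXPA10 in F. trinervia. For KOR1 they were 0.097 in F. angustifolia and 0.127 in F. pubescens, against −0.090 in F. cronquistii and −0.202 in F. pringlei.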

How the results depend on the processing

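Of the 6 members called with leaf age, CESA6 and EXPA4 kept their calls in all 12 alternatives. EdgeR on the recovered reads passed 3 members (CESA3 higher, CESA6 and EXPA4 lower). With no replicate block, that is without the species block that pairs the stages, 2 members and 3840 loci passed, against 7291 with it. Leaving out 1 species passed 4 to 6 members. CESA1 and KOR1 changed sign with TMM scaling (0.12 and 0.12) and edgeR (0.13 and 0.12). No member passed in any type comparison or alternative. The edgeR fits of C4 against C3 and of the wider grouping had no species term. Their counts of loci below therefore treat both libraries of a species as independent. For C4 against C3, 184 loci passed, and 1125 with edgeR, 33 with 1 value per species, 12 in juvenile and 29 in mature libraries alone, and 38 (without F. cronquistii) to 261 (without F. kochiana) with 1 species left out; F. bidentis and F. trinervia also moved it by over 1.5 times (71 and 78). For C4 and C4-like against C3 and C3-C4, 203 passed, and 637, 76, 36 and 7 in the same order, and 83 (without F. cronquistii) to 413 (without F. brownii) with 1 species left out; F. angustifolia, F. bidentis, F. palmeri and F. vaginata also moved it by over 1.5 times (116, 120, 128 and 124). The stage difference by type passed 0 to 1 loci without 1 species.

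Small differences changed sign. For C4 against C3 these were CESA1 and CESA3 with TMM scaling (0.023 and 0.069), CESA3 with edgeR (0.053), CESA6 and EXPA1 in juvenile libraries (−0.18 and −0.10) and CESA1 in mature ones (0.075). Without 1 species CESA1 ran from −0.30 to 0.070, CESA3 from −0.24 to 0.11 and CESA6 from −0.095 to 0.24. For C4 and C4-like against C3 and C3-C4 they were CESA1 with edgeR (−0.020), CESA1, KOR1, EXPA5 and EXPA8 in juvenile libraries (−0.074, 0.018, −0.10 and −0.065) and CESA6 in mature ones (−0.16). Without 1 species CESA1 ran from −0.064 to 0.13 and EXPA5 from −0.13 to 0.59. In the stage difference by type CESA1 ran from −0.016 to 0.23, CESA3 from −0.32 to 0.022 and CESA6 from −0.016 to 0.40. The cause of these changes was not tested. With 1 library per species and stage, differences between plants of a species cannot be measured.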

Other observations

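Several wall loci drew few or no reads in these libraries, and since Flaveria reads were assigned to Arabidopsis loci, a low value is not a measure of absent expression. The root hair expansins EXPA7 and EXPA18 reached at most 0.157 and 0.398 RPM in any library, and EXPA20 reached 0.128 RPM. EXPA12 reached 0.945 RPM, and the polygalacturonase PGX1 0.356 RPM. EXPB1 and EXLB1 were too low on average to be tested but reached 8.82 and 7.65 RPM in single libraries.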
